A study of Homo sapiens with 2 samples.

Results

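The calcium pumps and the genes of store-operated calcium entry were examined as 10 genes of the 19775 that had a probe set with 1 gene symbol: ATP2A2, ATP2A3, ATP2B1, ATP2B4, ATP2C1, STIM1, STIM2, ORAI1, ITPR1 and ITPR3. The list was selected on knowledge of the pathway and on a measured value, since ATP2B4 was already known to be among the largest increases of these arrays. PC3CR cells are a cabazitaxel (CBZ)-resistant subline of the human prostate cancer cell line PC3, which had been passaged in CBZ, a microtubule-stabilising taxane, for 18 months and was profiled after 3 months without it. PC3 cells are the parental, CBZ-sensitive line and were cultured in the same medium. Whether PC3CR is 1 clone was not given in the sources used here, and the cell line entry of the labels reads PC3 for both samples, so the groups rest on the sample titles. Total RNA of each line was hybridised to 1 array.

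With 1 array per line no difference below has a replicate check, no test was possible, and the precision of each value is that of a single array. All values are log2 values of the robust multichip average (RMA), and a difference is PC3CR minus PC3, so that 1 on this scale is 2-fold. Each gene was read from the probe set that was brightest on average over both arrays, and the remaining probe sets are given beside it. RNA came from whole cultures, so a change in every cell and a change in the share of cells that express a gene cannot be told apart. The median difference of all genes was -0.04. The epithelial markers EPCAM, KRT8, KRT18, KRT19 and CDH1 all lay above the gene median on both arrays, from 8.03 to 12.36 in PC3CR and from 8.75 to 11.69 in PC3. The immune markers PTPRC and CD3E lay below it on both, as did 3 of 4 stromal markers, with COL1A1 the exception at 6.56 in PC3CR and 8.69 in PC3. Of 3 endothelial markers 0 lay above it in PC3CR and 1 in PC3. Of the luminal prostate markers, KLK3 was at 8.08 in PC3CR and 8.04 in PC3, KLK2 lay below the median on both arrays, and TMPRSS2 was at 5.78 in PC3CR and 6.23 in PC3, above the median in PC3 alone. The epithelial markers went both ways, with differences of -2.49 for EPCAM, -3.28 for KRT19, -0.67 for CDH1, 0.07 for KRT8 and 0.67 for KRT18, and their part in the calcium genes was not tested.

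Cells keep cytosolic calcium low by pumping it out across the plasma membrane and into stores. The plasma membrane pumps (PMCA) are encoded by the ATP2B genes, the endoplasmic reticulum pumps (SERCA) by the ATP2A genes and the Golgi pumps (SPCA) by the ATP2C genes. Receptors for inositol trisphosphate (IP3), encoded by the ITPR genes, release calcium from the reticulum. When the store empties, STIM proteins in the reticulum membrane sense the loss and open ORAI channels in the plasma membrane, which is store-operated calcium entry.

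ATP2B4 and STIM2 were the members past 2-fold, both higher in PC3CR, and no member was 2-fold lower. Thus 2 of 10 members were at least 2-fold higher, where 9.84% of all genes were, and 0 of 10 were at least 2-fold lower, where 6.72% of all genes were. The median difference of the 10 members was 0.15, with 6 members higher and 4 lower. The members nearest to the threshold were STIM2 at 1.40 inside it and ATP2A3 at 0.76 outside it. Over single probe sets, 5 of the 34 that measured these genes were at least 2-fold higher, where 8.94% of all probe sets with 1 gene symbol were, and 0 were at least 2-fold lower, where 5.89% were. These counts include ATP2B4, which the choice of genes used, and with so few genes they give no result about the pathway.

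**Figure D1:**
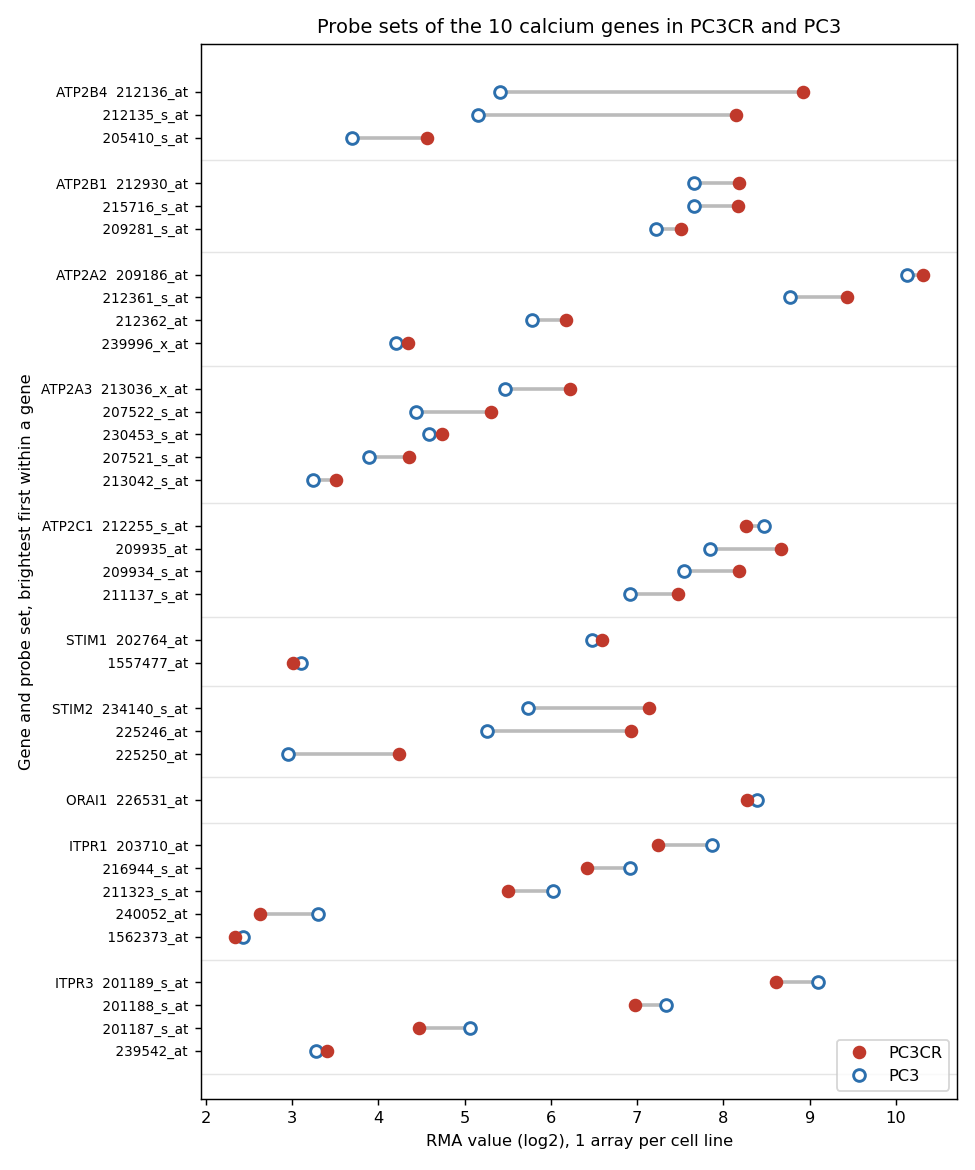
RMA values (log2, horizontal axis) of the 34 probe sets of the 10 genes (vertical axis, grouped by gene, the brightest probe set on top), with filled red points for PC3CR, open blue points for PC3, grey lines joining the points of 1 probe set, and 1 array per cell line. The long lines are those of 2 ATP2B4 probe sets and all 3 STIM2 probe sets, the red point of ATP2C1 lies left of the blue one for its top probe set and right of it for the other 3, and the ITPR1 points lie to the left in PC3CR for all 5.

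The upstream sequences of ATP2B4 and STIM2 are shown because these were the members past 2-fold in the same direction, and their base composition differs. RefSeq tables of GRCh38.p14 held start sites for 8 of the 10 members, without ATP2A3 and ORAI1. Each sequence is the 250 bases before the annotated start, 5′ to 3′ in the direction of the gene, at chr1:203626582-203626831 (+ strand) for ATP2B4 and chr4:26860591-26860840 (+ strand) for STIM2. Capitals mark matches, on either strand, to the GC box GGGCGG, the CCAAT box CCAAT and the core GGAAA, which the calcium-regulated factor NFAT can bind.
ATP2B4: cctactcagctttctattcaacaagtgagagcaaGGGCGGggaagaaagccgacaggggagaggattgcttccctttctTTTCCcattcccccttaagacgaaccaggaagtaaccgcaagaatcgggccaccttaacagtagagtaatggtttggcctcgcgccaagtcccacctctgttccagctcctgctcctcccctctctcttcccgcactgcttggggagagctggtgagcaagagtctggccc
STIM2: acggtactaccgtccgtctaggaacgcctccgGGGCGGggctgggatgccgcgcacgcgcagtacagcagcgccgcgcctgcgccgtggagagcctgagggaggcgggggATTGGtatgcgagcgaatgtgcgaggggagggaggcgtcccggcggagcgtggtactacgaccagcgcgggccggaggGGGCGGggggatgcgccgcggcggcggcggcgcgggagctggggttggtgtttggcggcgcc
The ATP2B4 stretch held 1 match to the GC box and 1 to the NFAT core, read on the opposite strand. The STIM2 stretch held 2 GC boxes and 1 CCAAT box. The letters of the GC box occurred in 42.6% of 35116 upstream stretches of the same length, those of the CCAAT box in 32.0% and those of the NFAT core in 55.6%, so that each match is common. Neither held TATAAA, the E box CACGTG or the cAMP response element TGACGTCA, which 10.7%, 6.34% and 1.65% of all stretches held. GC content was 55.6% with 8 CpG dinucleotides for ATP2B4 and 75.2% with 38 for STIM2, where the median stretch had 58.0% and 11. A match is a description of letters and not a binding site, and none of these data measured binding.

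Among the members the largest difference was that of the PMCA gene ATP2B4, which was chosen for its increase on these arrays. ATP2B4, which encodes PMCA4 and exports calcium from the cytosol, had an RMA value of 8.92 in PC3CR and 5.41 in PC3 for its brightest probe set, 212136_at. The difference of 3.51 is 11.4-fold and was exceeded by 9 genes of all those measured. Its second probe set, 212135_s_at, was at 8.15 in PC3CR and 5.15 in PC3, a difference of 3.00. Both lay above the gene median of 6.05 in PC3CR and below the gene median of 5.93 in PC3. The third, 205410_s_at, was at 4.57 in PC3CR and 3.69 in PC3, a difference of 0.87 that is below 2-fold, in dim signal. All 3 probe sets were therefore higher in PC3CR, but the size ranged from 0.87 to 3.51, and their mean difference was 2.46. Where in the transcript each probe set lies was not given in the sources used here. ATP2B1, which encodes PMCA1, the widely expressed pump of this family, was at 8.18 in PC3CR and 7.66 in PC3, a difference of 0.52. Over its 3 probe sets the difference ran between 0.30 and 0.52, all higher in PC3CR and all within 2-fold. The brain-enriched pumps ATP2B2 and ATP2B3 were at 5.35 and 4.39 in PC3CR and 5.45 and 4.48 in PC3, below the gene median on both arrays, with differences of -0.10 and -0.09. NPTN and BSG encode neuroplastin and basigin, subunits that PMCA pumps need at the membrane. NPTN was at 11.98 in PC3CR and 11.29 in PC3, a difference of 0.68, and BSG at 9.34 in PC3CR and 9.31 in PC3, a difference of 0.03.

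**Figure D2:**
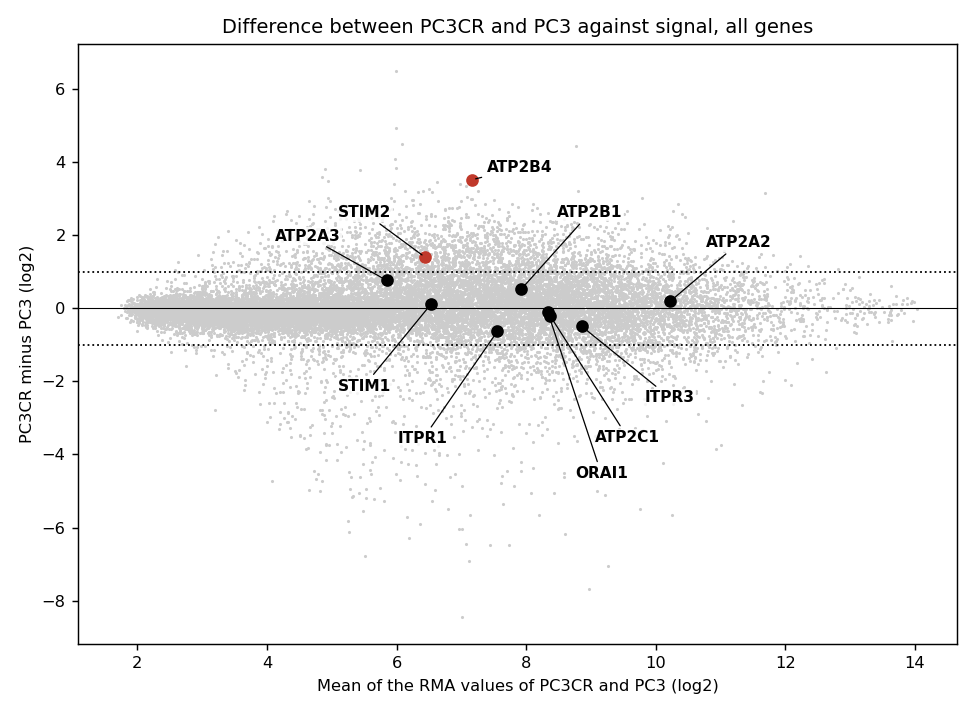
Difference between PC3CR and PC3 (log2, vertical axis) against the mean RMA value of both arrays (log2, horizontal axis) for 19775 genes in grey, with the 10 calcium genes named. Dotted lines mark 2-fold. ATP2B4 at 3.51 and STIM2 at 1.40, in red, lie above the upper line and the other 8 genes, in black, lie between the lines.

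The genes next to ATP2B4 on chromosome 1 did not share its difference. Among the 10 nearest measured genes, 5 on each side, differences ran from -0.64 for PRELP to 0.58 for ZBED6 with a median of -0.13, and 0 were past 2-fold. Of these neighbours 2 had a brighter array at or above the gene median, SNRPE at -0.13 and SOX13 at 0.06. Around STIM2 on chromosome 4 the 10 nearest genes had a median of 0.04, and 2 were at least 2-fold higher, SEL1L3 at 1.86 and ARAP2 at 1.43. Only 4 of these 10 had a brighter array at or above the gene median: SEL1L3, ARAP2, RBPJ at 0.55 and SMIM20 at 0.01. The median of 0.04 therefore rests mostly on dim genes. No copy number was measured on these arrays.

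The SERCA pumps were within 2-fold. ATP2A2, the housekeeping SERCA gene, was at 10.31 in PC3CR and 10.13 in PC3, a difference of 0.19. Over its 4 probe sets the difference ran between 0.13 and 0.65, and the largest was that of 212361_s_at, at 9.43 in PC3CR and 8.78 in PC3. ATP2A3, which encodes SERCA3, was at 6.23 in PC3CR and 5.47 in PC3 for 213036_x_at, a difference of 0.76 or 1.69-fold. Each of its 5 probe sets was higher in PC3CR, by between 0.15 and 0.87, and the other 4 lay at 5.31 or lower on both arrays. ATP2A3 therefore had a single direction over all its probe sets, in signal near or below the gene median. The muscle SERCA gene ATP2A1 was at 3.83 in PC3CR and 4.03 in PC3, a difference of -0.20, under the lower quartile of each array, which was 4.10 in PC3CR and 4.22 in PC3.

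ATP2C1, the Golgi pump for calcium and manganese, had probe sets that pointed in opposite directions. Its probe set with the highest mean, 212255_s_at, was at 8.27 in PC3CR and 8.47 in PC3, a difference of -0.21. The other 3 were higher in PC3CR, with 209935_at at 8.67 in PC3CR and 7.84 in PC3, a difference of 0.82. The remaining pair differed by 0.65 and 0.56. The mean over all 4 was 0.46 in favour of PC3CR. All 4 were bright, so the direction of ATP2C1 depends on the probe set and is not settled by these arrays. ATP2C2, the second SPCA gene, found mainly in secretory epithelia, was at 4.11 in PC3CR and 5.28 in PC3, a difference of -1.17. Its 3 probe sets were all lower in PC3CR, by between -0.62 and -1.17, with a mean of -0.84, in signal below the gene median on both arrays.

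Among the sensors and channels of store-operated entry, STIM2 was higher in PC3CR and its paralog STIM1 differed little. STIM2, the sensor that responds to small falls in store calcium and supports basal entry, was at 7.14 in PC3CR and 5.74 in PC3 for 234140_s_at, a difference of 1.40 or 2.63-fold. Its other probe sets were at 6.93 in PC3CR and 5.26 in PC3, a difference of 1.67, and at 4.24 in PC3CR and 2.95 in PC3, a difference of 1.29. All 3 were past 2-fold in the same direction, which held for no other member. STIM1, the sensor that responds to strong store depletion, was at 6.59 in PC3CR and 6.48 in PC3, a difference of 0.12, while its dim second probe set differed by -0.10. Its value was 0.0007 after the differences had been centred on a loess curve over signal and -0.02 after quantile normalization, so no direction can be given. ORAI1, the pore subunit of the calcium release-activated channel, had 1 probe set, at 8.28 in PC3CR and 8.39 in PC3, a difference of -0.11. ORAI3, a channel paralog found only in mammals, was at 8.82 in PC3CR and 7.70 in PC3 for its only probe set, a difference of 1.11 or 2.16-fold, which was 1.01 after loess centring. ORAI2 was at 7.53 in PC3CR and 7.02 in PC3, a difference of 0.51, and its 6 probe sets ran from -0.81 to 1.02, with 5 higher in PC3CR.

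The IP3 receptors among the members, ITPR1 and ITPR3, were lower in PC3CR by less than 2-fold. ITPR1 was at 7.24 in PC3CR and 7.87 in PC3 for 203710_at, a difference of -0.63, which is 1.55-fold lower. Its other 4 probe sets differed by -0.49, -0.52, -0.66 and -0.09, so that all 5 were lower. ITPR3, the receptor that predominates in many epithelia, was at 8.61 in PC3CR and 9.10 in PC3 for 201189_s_at, a difference of -0.49. Its next probe sets differed by -0.36 and -0.59, and the dimmest, 239542_at, at 3.40 in PC3CR and 3.27 in PC3, by 0.13. ITPR1 and ITPR3 thus lay on the lower side for 8 of their 9 probe sets, with 0 of 9 past 2-fold. The third receptor gene, ITPR2, was at 5.16 in PC3CR and 5.35 in PC3, a difference of -0.19, by its brightest probe set, while the other 3 were higher in PC3CR in dim signal. The muscle and neuronal release channels RYR1, RYR2 and RYR3 were at 4.14, 3.48 and 2.81 in PC3CR and 4.10, 3.57 and 2.72 in PC3, all far below the gene median.

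Over the wider calcium lists, which hold 183 genes beside the members and of which 169 were measured, 16 were past 2-fold on the higher side and 7 on the lower side. These shares, 9.47% and 4.14%, are read against the 9.84% and 6.72% of all genes, and the median was 0.00. The wider lists were thus near or below this background of all genes, dim ones included, in both directions. Of the 169 genes, 95 had a brighter array at or above the gene median, and 12 of these were higher and 6 lower by 2-fold. The share of all genes at that floor was not counted, so these counts have no background.

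The list nearest to store-operated entry, regulators of STIM and ORAI, had 4 of 16 measured genes past 2-fold on the higher side, 1 on the lower side and a median of 0.73. Of these 5 genes, 3 were within 2-fold by the mean over their probe sets. ESYT2, which tethers the reticulum to the plasma membrane, was at 9.97 in PC3CR and 8.65 in PC3, a difference of 1.32, but 3 of its 5 probe sets were lower in PC3CR and their mean difference was 0.10. SEPTIN4, a cytoskeletal septin, differed by 1.52, but by 0.58 when its probe sets were averaged. After quantile normalization 233006_at replaced 210657_s_at as its brightest probe set and the difference was 0.20, while that of 210657_s_at stayed at 1.45. The dim genes CRACR2A and ESYT3 differed by 1.03 and 1.70, or by 0.18 and 1.08 when averaged likewise. STC2, the secreted glycoprotein stanniocalcin 2, was at 8.34 in PC3CR and 9.91 in PC3, a difference of -1.57, with both probe sets lower. SARAF, the reticulum protein that switches STIM off and named here after its value was seen, was at 11.75 in PC3CR and 10.84 in PC3, a difference of 0.91, with 1.07 for its other probe set.

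Of 13 measured pump subunits and regulators, TMX1 was past 2-fold on the higher side and VMP1 on the lower side, and the median was -0.10. TMX1, a reticulum thioredoxin that modulates SERCA, was at 12.08 in PC3CR and 11.06 in PC3, a difference of 1.02. VMP1, a reticulum membrane protein of autophagy that acts on SERCA, was at 6.06 in PC3CR and 7.31 in PC3 for its only probe set, a difference of -1.25. THADA, of the same list and named after its values were seen, differed by -0.66 for its brightest probe set. Its probe sets 54632_at and 220212_s_at differed by 1.27 and 1.08, and the mean over all 7 was 0.18. Of 16 IP3 receptor regulators, 2 were higher and 1 lower by 2-fold, with a median of 0.19. ERLIN1 and RNF170 encode a scaffold and a ubiquitin ligase that remove activated IP3 receptors, and differed by 1.15 and 1.48. Averaged over its probe sets RNF170 was within 2-fold, at 0.97. ITPRID2, which anchors IP3 receptors to actin, was at 8.52 in PC3CR and 9.97 in PC3, a difference of -1.45, with all 3 probe sets lower.

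Genes that form and break down IP3 included the largest decrease of the calcium lists. PLCB4, a phospholipase C that makes IP3 downstream of G proteins, was at 5.79 in PC3CR and 9.10 in PC3, a difference of -3.32. Its second probe set was at 5.29 in PC3CR and 8.45 in PC3, a difference of -3.16, so that both probe sets were lower by a similar amount. PLCG2 differed by 1.12, with 2 of its 4 probe sets lower and a mean of 0.35. The inositol phosphatase genes INPP1 and IMPA1, with 1 probe set each, differed by 1.17 and -1.02. IMPA1 differed by -0.97 after median centring and -0.94 after quantile normalization. Over the 20 measured genes of this list 2 were higher and 2 lower by 2-fold, with a median of 0.01.

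Among other calcium routes few genes were past 2-fold. TRPC1, a cation channel subunit reported to work with STIM and ORAI proteins, was at 8.91 in PC3CR and 7.29 in PC3, a difference of 1.62. Its other probe sets differed by 1.94 and 2.12, so all 3 were past 2-fold. TRPM2, a channel gated by oxidative signals, differed by -1.13 for its only probe set. Of 20 TRP and Piezo channels 1 was higher and 1 lower by 2-fold, with a median of -0.06. CACNA2D2, an auxiliary subunit of voltage-gated channels, was at 8.16 in PC3CR and 6.18 in PC3, a difference of 1.98 for its only probe set, while the other 16 measured genes of that list were within 2-fold and 4 of the 17 reached the gene median. PPP3CA, a catalytic subunit of calcineurin, was at 9.46 in PC3CR and 8.20 in PC3, a difference of 1.26, with all 3 probe sets higher by between 1.26 and 1.42. In its list of 15 calcineurin and NFAT genes 2 were higher and 0 lower by 2-fold, the second being the dim RCAN2 at 1.77, with a median of 0.27. PPP3CB, another catalytic subunit of calcineurin and named after its values were seen, went the other way, at 8.48 in PC3CR and 9.46 in PC3, a difference of -0.98. Its second probe set differed by -1.36 and the mean of both was -1.17, so that by the mean 1 gene of that list was 2-fold lower. MICU3, a regulator of the mitochondrial uniporter, differed by 1.11 for its only probe set, and LETM2 by 1.04 in dim signal, or by 0.61 for the mean of its probe sets. In that list of 12 genes 2 were higher and 0 lower by 2-fold, with a median of 0.17. By the brightest probe set, no gene was past 2-fold among 14 genes of calcium leak and luminal binding (median 0.08), 7 sodium calcium exchangers (median -0.30) or 9 calmodulin kinases (median -0.18). In these lists NUCB2, a calcium-binding protein, differed by 0.80, but by 1.51 for its second probe set and by 1.16, past 2-fold, for the mean of both. TMBIM6 differed by 0.67, CAMK1 and CAMK2G by 0.93 and -0.74, and no exchanger reached the gene median.

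**Figure D3:**
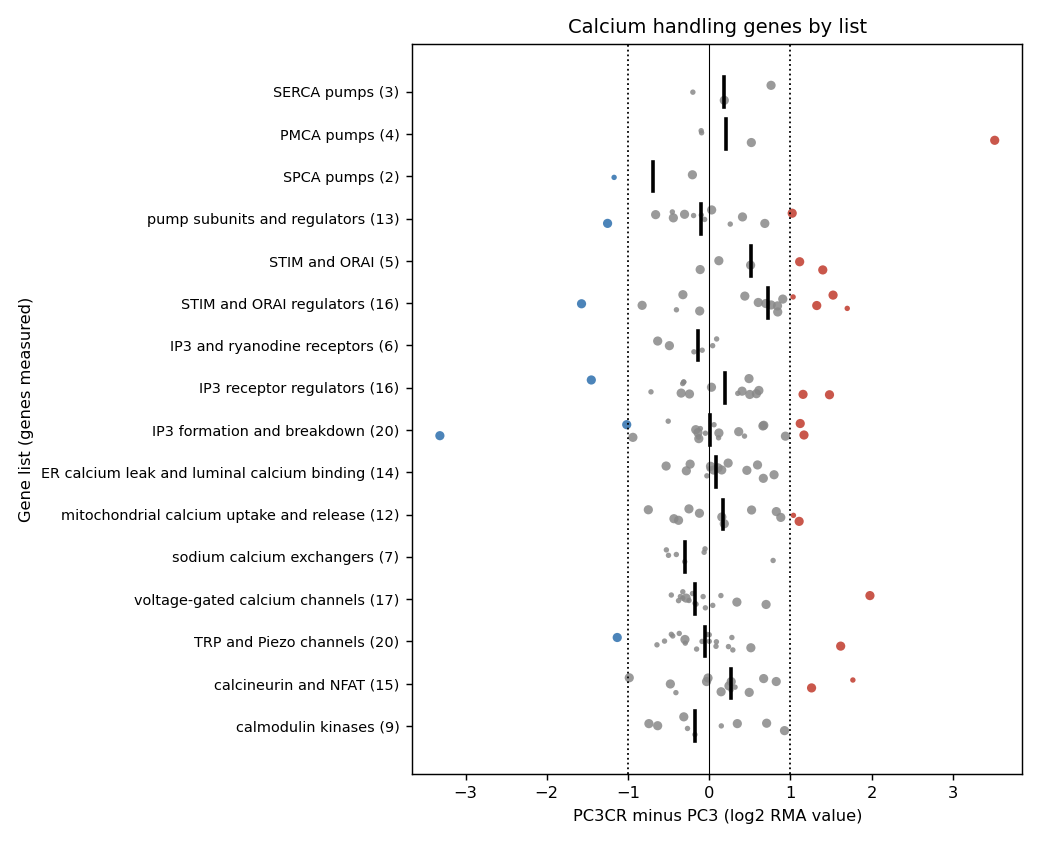
Each point is 1 measured gene of 16 calcium lists (vertical axis, number measured in brackets), placed by PC3CR minus PC3 in log2 units (horizontal axis). Genes past 2-fold are red where higher in PC3CR and blue where lower, the others are grey, large points have a brighter array at or above the gene median, black bars are list medians, and dotted lines mark 2-fold. ATP2B4 at 3.51 is the point furthest right and PLCB4 at -3.32 the point furthest left.

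ATP2B4 and STIM2 stayed past 2-fold under every choice of probe set and scaling that was run, whereas 3 of the other members changed direction under at least 1 of them. The lowest value of ATP2B4 was 2.46, the mean over its probe sets. The other settings that could change its probe set returned 212136_at again. Its dimmest probe set, 205410_s_at, differed by 0.87, below 2-fold, and was not used alone in any setting. ATP2B4 was chosen for its increase on these arrays, so its staying past 2-fold adds no support. STIM2 ran from 1.29 after loess centring or quantile normalization to 1.67 without probe sets whose identifiers end in _x_at or _s_at, which can match more than 1 transcript or gene. ATP2C1 turned from -0.21 to 0.46 and 0.82, ITPR3 from -0.49 to 0.13 when only its dimmest probe set was left, and STIM1 from 0.12 to -0.02.

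**Figure D4:**
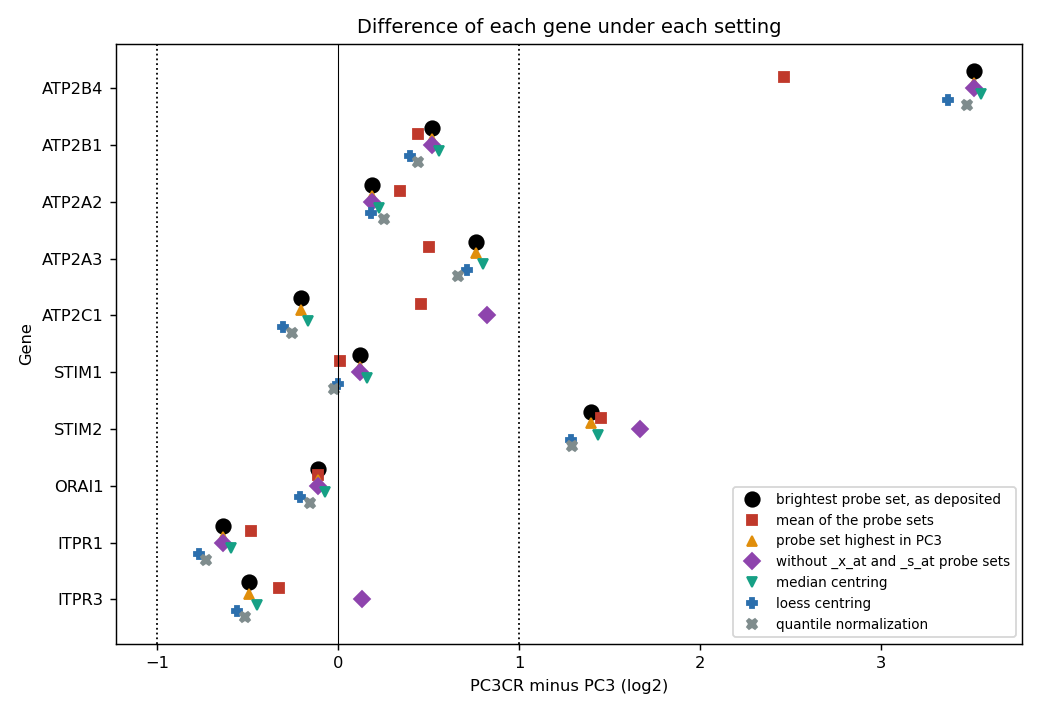
Difference between PC3CR and PC3 (log2, horizontal axis) of the 10 genes (vertical axis), with a black circle for the brightest probe set as deposited and another symbol for each of 6 other choices of probe set or scaling. Dotted lines mark 2-fold. All symbols of ATP2B4 and STIM2 lie to the right of the upper line, and those of ATP2C1, ITPR3 and STIM1 lie on both sides of 0.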

How the data were processed

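The deposited values are log2 signals per probe set, summarised by the authors with the robust multichip average (RMA). The submitters list Expression Console 1.4 and Transcriptome Analysis Console 3.1 of Affymetrix as tools. This method corrects background and makes the distributions of arrays alike, so a difference in total RNA per cell would not be seen. Probe set names match the U133 Plus 2.0 design, but Human Gene 1.0 ST is the array the methods give. No detection call was used. Of 54613 probe sets, 41091 had 1 gene symbol in the platform annotation and were used, 1801 had several and 11721 were unnamed here. Symbols were updated through Entrez IDs to RefSeq on GRCh38.p14, which also gave chromosomes, neighbours and upstream sequences. The brightest probe set on average stood for each gene. Calls used the 2-fold threshold of the methods (1 or more, or -1 or less, in log2) and no p-value.

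The members and gene lists were chosen with earlier results of these data known. The genes named were the members, the rest of their families, BSG and NPTN, the 5 genes nearest to ATP2B4, and in each list up to 4 genes furthest from 0 among those past 2-fold, or else 2, provided that 1 array reached the gene median. Dimmer genes past 2-fold, SARAF, PPP3CB and THADA were named after their values were seen. The alternatives were thresholds of 1.5-fold and 3-fold, the mean of the probe sets, the probe set highest in PC3, exclusion of _x_at and _s_at probe sets, a floor on signal at the gene median, median centring, loess centring (span 0.4) and quantile normalization. The calculation was tested on simulated data. Calculations ran in Python 3.11.15 with pandas 2.3.3 and numpy 2.4.6, the loess fit in statsmodels 0.14.6 and the plots in matplotlib 3.10.9.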

Additional observations from a re-analysis of the deposited data

How the results depend on the processing

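Values were taken as moved when they differed by over 0.1 on the log2 scale, or by over 1.5 times for a count. At a 3-fold threshold 1 member, 3 member probe sets and 4 other calcium genes were higher and 1 other calcium gene was lower. At 1.5-fold 1 member (ITPR1) was lower, 11 member probe sets were higher and 3 lower, and 38 other calcium genes were higher and 16 lower. The shares of all genes and probe sets past 3-fold and 1.5-fold were not counted. These counts therefore show only how the threshold changes them and cannot be read against a background. Without _x_at and _s_at probe sets, 3 member probe sets were past 2-fold on the higher side, and 9 members and 145 other genes remained measured. The median of the members was 0.39 with the mean of the probe sets. ATP2B4 differed by 2.46 with that mean and by 3.37 after loess centring, and STIM2 by 1.67 without _x_at and _s_at probe sets, 1.29 after loess centring and 1.29 after quantile normalization. All of these values of ATP2B4 and STIM2 kept their direction and stayed past 2-fold. Of the other 53 values of counts, the median, ATP2B4 and STIM2, none moved by more than these limits. No paired analysis was possible because each cell line had 1 array. Signal near the floor of the array limits the dim probe sets of ATP2B4, ATP2A2, ATP2A3, STIM1, STIM2, ITPR1 and ITPR3, and 1 array per line limits all values.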

Other observations

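ITPR2, the third IP3 receptor gene, depended on the probe set. The probe set with the highest mean, 211360_s_at, was at 5.16 in PC3CR and 5.35 in PC3. The other 3 were higher in PC3CR, with 202660_at at 5.19 in PC3CR and 3.09 in PC3, a difference of 2.10, 202662_s_at at 4.59 in PC3CR and 3.55 in PC3, a difference of 1.04, and 202661_at differing by 0.78. As the mean of the 4 probe sets ITPR2 differed by 0.93, while ITPR1 and ITPR3 differed by -0.48 and -0.33 by the same measure. All of these ITPR2 values lay below the gene median on both arrays.

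The 5 genes whose pair of values lay nearest to that of ATP2B4, by Euclidean distance over the 2 arrays, were SEMA3E, NID2, MAP2, ASPM and PAG1, at distances of 0.17 to 0.37. With 2 arrays this measures only a like level and a like difference, and any gene brighter in PC3CR by a similar amount would be found.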
